A study of Mus musculus with 8 samples.

Results

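Genes of blood and lymphatic endothelium were followed in white fat of the epididymal depot, the pad next to the testis. The set held 38 genes, chosen by name as markers and signalling genes of vessels, with earlier results of these data known. They were found by exact match of the symbol in the count table, and 37 of the 38 had a row among the 31854 rows of the table. Ramp2, an accessory subunit of adrenomedullin receptors, had no row under that symbol and was not analysed here. The 37 were grouped as 18 pan-endothelial, 5 arterial, 6 venous and 4 lymphatic genes and 4 vascular growth factors.

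All mice were on a high-fat diet. One genotype was wild-type (WT, 4 libraries, replicates 1, 2, 3 and 5). The other carried S273A (4 libraries, replicates 2, 3, 4 and 6), named for the exchange of serine 273 of PPAR-gamma, a nuclear receptor needed to form adipocytes, for alanine. The sources used here do not give strain, age, sex, the length of the diet, the number of founder animals or whether RNA was pooled. Nothing in the labels says that libraries are from different animals; a p-value here reflects only how much these libraries vary, and part of that may be technical.

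Endothelial cells line all vessels and are held together by adhesion proteins such as VE-cadherin and claudin 5. Vascular endothelial growth factors signal through the receptors Kdr, Flt1 and Flt4, and angiopoietins signal through Tek, the Tie2 receptor. Arterial cells are marked by Notch ligands, ephrin B2 and gap junction proteins, venous cells by EphB4 and the adhesion molecules that capture leukocytes, and lymphatic cells by the transcription factor Prox1. In fat, capillaries supply fatty acids and hormones to adipocytes, and lymphatic vessels drain fluid and immune cells.

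Each WT library held 14880239 to 17266209 counts and each S273A library 16161127 to 18194889. The libraries were made from whole tissue without strand marking. Each value is therefore a mixture over cell types, and fewer endothelial cells cannot be told apart from less endothelial RNA per cell. Adipocyte markers, here Adipoq, Plin1, Cidec, Lep, Lipe and Pnpla2, were abundant, with a summed level of 4485 to 7048 CPM in WT and 5252 to 6944 CPM in S273A. CPM is the read count normalised to library size, on the usual CPM scale, with sizes corrected by the TMM method. All 37 genes had reads in every library, so the vessel markers were present in each.

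No endothelial gene was called different between the genotypes. In edgeR's quasi-likelihood test none of the 37 passed an adjusted p of 0.05, and 0% of all 15667 tested rows did (0 rows). At an unadjusted p under 0.05, 0 of the 37 were called, against 1.46% of all tested rows (229 of 15667). DESeq2 called 0 of the 37 at an adjusted p (0.00441% of all rows) and 0 at an unadjusted one (0.952%), and limma-voom called 0 at an adjusted p (0% of all rows) and 0 at an unadjusted one (1.42%). None had all 4 libraries of one genotype above all 4 of the other, against 1.19% of all rows. The smallest unadjusted p of the set was 0.0849, for Eng, and every adjusted p was 0.9999.

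More estimates lay above 0 than below, and that excess rested on single libraries. The log2 fold change of S273A over WT was above 0 for 31 of the 37 genes and 50.7% of all tested rows, with a median of 0.09 over the 37 and of 0.001 over all rows. Without WT replicate 2 it was above 0 for 17 of the 37, with a median of -0.01. Without S273A replicate 6 it was above 0 for 22 of the 37, with a median of 0.02, and without WT replicate 3 the median was 0.16. The intervals bound the sizes that these libraries allow: the median half-width of the 95% confidence interval was 0.34 on the log2 scale for the 37 genes and 0.24 for all tested rows.

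**Figure D1:**
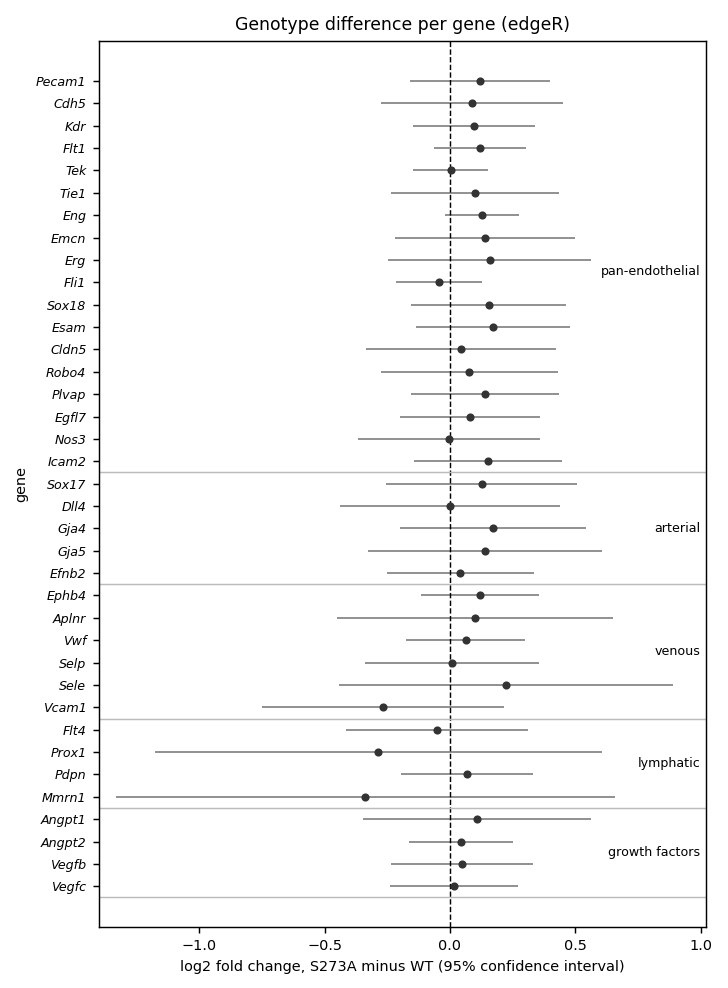
Log2 fold change of S273A over WT for each of the 37 genes (x axis; points are edgeR estimates, bars 95% confidence intervals), ordered by group on the y axis. Every interval crosses 0, and the widest are those of the lymphatic genes Mmrn1 (-1.33 to 0.66) and Prox1 (-1.18 to 0.61).

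Levels of different genes are compared here only per length, as RPKM, the CPM per kilobase of the row's deposited length. Claudin 5, the tight junction protein of endothelium, had the highest level of the set, 68.2 ± 14.0 RPKM in WT compared with 70.4 ± 13.2 in S273A (SD, n = 4 each). Vcam1, an adhesion molecule that binds leukocyte integrins, came next by its mean over all 8 libraries, with 54.9 ± 7.74 and 45.6 ± 14.8 RPKM. In S273A its mean was below that of Cdh5. Cdh5, VE-cadherin of the adherens junction, was at 44.4 ± 9.21 and 47.2 ± 7.87 RPKM. These neighbours overlapped within their spread in both genotypes.

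At the other end, Sele, the E-selectin that inflamed endothelium displays, was at 0.291 ± 0.0268 RPKM in WT (SD, n = 4) and at 0.339 ± 0.140 in the knock-in. Prox1 was at 0.504 ± 0.215 and 0.414 ± 0.199 RPKM. In between, the VEGF receptors lay in a clear order: Kdr was at 18.03 ± 2.37 RPKM, Flt1 at 9.92 ± 0.958 and Flt4, below both, at 3.66 ± 0.549 in S273A. The deposited length of Nos3, endothelial nitric oxide synthase, was 2.79 times the union of its GENCODE exons, and those of Vcam1 and Egfl7 were 0.423 and 0.454 times, so their levels per length are uncertain. For Flt1, Flt4 and Kdr it was 0.551, 0.709 and 0.948 times, so the distances between these receptors also depend on the lengths used.

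**Figure D2:**
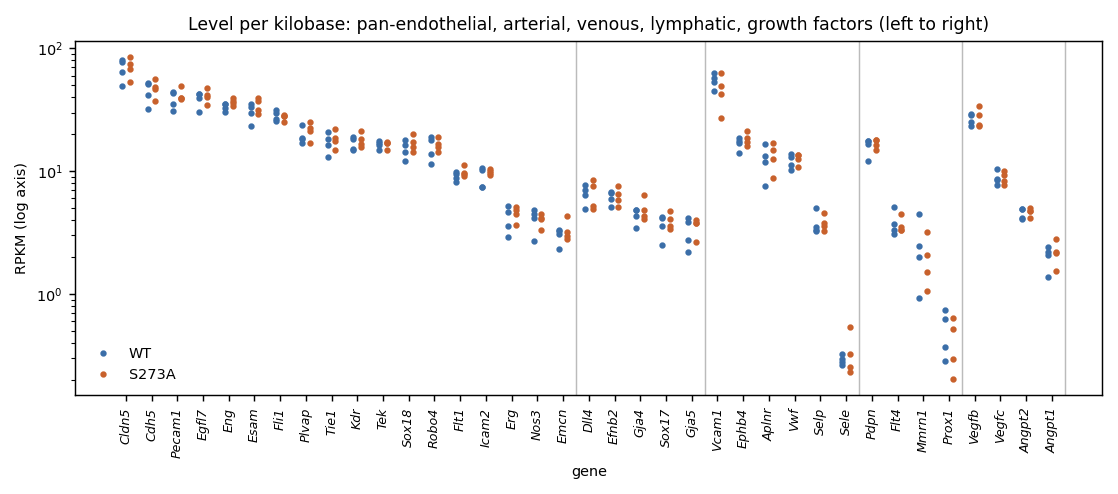
Level per length (RPKM, log axis) of the 37 genes in the 8 libraries; each point is a library, coloured by genotype. The genes span a wide range from Sele and Prox1, under 1 RPKM on average, to Cldn5, and the points of both genotypes interleave for every gene.

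Upstream sequences of 4 of the genes are given for 2 reasons: Cldn5 and Sele stand at the ends of this range, and Prox1 and Pdpn are a pair of lymphatic genes that, as described further on, followed each other little. These 4 were picked after their values had been seen. Each is the 250 bases before the RefSeq start (GRCm38.p6), read 5′ to 3′ on the gene's strand, with matches to the motifs searched in capitals.
Cldn5 (chr16:18776597-18776846, plus strand): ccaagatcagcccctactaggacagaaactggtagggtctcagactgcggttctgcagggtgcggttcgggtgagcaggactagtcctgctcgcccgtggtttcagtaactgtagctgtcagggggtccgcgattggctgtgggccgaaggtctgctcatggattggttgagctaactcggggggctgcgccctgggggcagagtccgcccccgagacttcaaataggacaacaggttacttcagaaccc
Sele (chr1:164047984-164048233, plus strand): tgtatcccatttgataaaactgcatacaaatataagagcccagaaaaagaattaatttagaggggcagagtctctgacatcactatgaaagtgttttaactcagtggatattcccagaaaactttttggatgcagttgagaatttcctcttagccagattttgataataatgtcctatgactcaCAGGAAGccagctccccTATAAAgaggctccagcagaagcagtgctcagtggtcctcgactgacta
Prox1 (chr1:190170828-190171077, minus strand): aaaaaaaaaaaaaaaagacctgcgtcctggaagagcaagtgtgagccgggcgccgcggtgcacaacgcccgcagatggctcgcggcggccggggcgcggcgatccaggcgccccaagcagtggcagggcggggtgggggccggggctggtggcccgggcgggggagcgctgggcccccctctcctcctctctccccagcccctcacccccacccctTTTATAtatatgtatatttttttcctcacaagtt
Pdpn (chr4:143299565-143299814, minus strand): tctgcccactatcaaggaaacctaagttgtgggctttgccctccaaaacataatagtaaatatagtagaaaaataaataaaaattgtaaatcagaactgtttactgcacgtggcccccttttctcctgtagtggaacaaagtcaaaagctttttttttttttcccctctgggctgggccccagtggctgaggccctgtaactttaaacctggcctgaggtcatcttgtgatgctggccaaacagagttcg

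The motifs searched on both strands were CCGGAAG and CAGGAAG, cores that ETS factors such as Erg and Fli1 can bind, AACAAT, a SOX core, and the TATA box TATAAA. Sele held CAGGAAG, starting 66 bases before the start, and TATAAA, starting 49 bases before it. Prox1 held TATAAA on the opposite strand, starting 34 bases before the start, and the other 2 windows held none of the 4. Of the 37 genes and Ramp2, 23 had an entry in the promoter table. The windows of Gja5 and Mmrn1 lay 127709 and 19341 bases from the GENCODE start. Those of Egfl7, Flt4 and Tie1 lay 1069, 416 and 212 bases from it, and the others at most 113. All 250 bases of the Flt4 window and 212 of the Tie1 window were GENCODE exon. CAGGAAG stood in 4 of these 23 windows, Egfl7 among them, and in 10.8% of the 32851 windows searched, which do not cover every chromosome. Each of the 23 genes has a single window here, while the 32851 can hold several for a gene. TATAAA stood in 4 of 23 and 12.4%, AACAAT in 3 of 23, Mmrn1 among them, and 9.42%, and CCGGAAG in 0 of 23 and 6.91%. These are matches of letters and no evidence of binding.

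The pan-endothelial genes cover junctions, receptors and the transcription factors of endothelial identity. Of the 18, 16 had an estimate above 0 and 2 below, and 0 passed the test. Their median log2 fold change was 0.11, or 0.03 without WT replicate 2 and 0.04 without S273A replicate 6. Cldn5 (row uc007yok.2; chr16:18776847-18778262, plus strand, a single exon) was at 114, 70.5, 110 and 91.7 CPM in the WT libraries, in the order of their numbers, and at 105, 76.2, 96.2 and 121 CPM in the S273A libraries. The genotypes overlapped almost fully, with WT replicate 2 lowest and S273A replicate 6 highest. The estimated log2 fold change was 0.05, with an SE of 0.17 and a 95% interval from -0.33 to 0.42.

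Cdh5 (row uc009mzx.2; chr8:104101625-104144511, plus strand, 13 exons) was at 203, 129, 208 and 167 CPM in WT and at 192, 149, 186 and 225 CPM in S273A. The same libraries stood at the ends as for Cldn5, WT replicate 2 at the bottom and S273A replicate 6 at the top. On the log2 scale S273A stood above WT by 0.09 (SE 0.16, 95% interval -0.28 to 0.45).

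Eng, endoglin, a co-receptor for BMP9 and TGF-beta, had the smallest p of the set. Its row (uc008jgk.2; chr2:32646595-32682669, plus strand, 14 exons) was at 127, 109, 126 and 117 CPM in WT and at 122, 132, 128 and 142 CPM in S273A. S273A replicates 3, 4 and 6 lay above every WT value, the lowest of them narrowly, and replicate 2 lay inside the WT range. In log2 terms the difference was 0.13 (SE 0.07, 95% interval -0.02 to 0.28), with an unadjusted p of 0.0849 and an adjusted p of 0.9999 in edgeR. Without S273A replicate 2 the unadjusted p was 0.0457 and the adjusted p 0.9994.

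Flt1, the high-affinity VEGF receptor that also acts as a decoy, was at 70.6, 60.7, 74.0 and 66.1 CPM in WT and at 72.3, 67.7, 71.0 and 84.0 CPM in S273A. A single S273A library, replicate 6, lay above the WT range. The log2 estimate was 0.12 (SE 0.08, 95% interval -0.06 to 0.30). Its partner Kdr, the main signalling receptor for VEGF-A, ran from 128 to 163 CPM in WT and from 136 to 182 CPM in S273A.

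Tek, Fli1 and Eng varied least across the 8 libraries within this group, with a highest library 1.17-fold, 1.26-fold and 1.30-fold above the lowest. Tek ran from 70.5 to 82.4 CPM in WT and from 70.3 to 81.4 CPM in S273A, with an interval for its log2 fold change of -0.15 to 0.15. Fli1, an ETS factor that blood cells also express, ran from 81.5 to 100.3 CPM in WT and from 79.7 to 91.5 CPM in S273A. It and Nos3 were the 2 pan-endothelial genes with an estimate below 0.

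The other pan-endothelial genes had log2 fold changes between 0.08 and 0.17. They were Pecam1, Tie1, Emcn, Erg, Sox18, Esam, Robo4, Plvap, Egfl7, Icam2 and Kdr, which encode adhesion molecules, receptors, transcription factors, a vesicle diaphragm protein and a secreted guidance factor. The Egfl7 gene has 459 exon bases shared with other annotated genes, among them the Mir126a and Mir126b precursors and Agpat2 on the opposite strand. Nos3 shares 1334 exon bases with opposite-strand genes. These overlaps are between GENCODE exons, not the deposited rows, and how reads in shared bases were counted is not given.

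Arterial genes were likewise not called. All 5 had an estimate above 0, with a median log2 fold change of 0.13, which was -0.01 without WT replicate 2 and 0.02 without S273A replicate 6. Dll4, the Notch ligand of arterial and tip cells, was at 29.4, 18.7, 27.0 and 24.5 CPM in WT and at 32.2, 19.8, 18.7 and 28.7 CPM in S273A. Each genotype held a low and a high library, and the log2 fold change was 0.0003 (SE 0.20, 95% interval -0.44 to 0.44).

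Efnb2, ephrin B2, the arterial ligand of EphB4, was at 28.8, 21.9, 25.9 and 29.1 CPM in WT and at 25.4, 22.3, 28.2 and 33.0 CPM in S273A. Its genotypes overlapped over most of their range (log2 fold change 0.04, SE 0.13). Gja4, connexin 37, was at 8.19, 5.80, 8.14 and 7.22 CPM in WT and at 8.14, 6.92, 7.29 and 10.7 CPM in S273A. Only S273A replicate 6 lay above the WT libraries, and the log2 fold change was 0.17 (SE 0.17, 95% interval -0.20 to 0.54).

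Sox17, a transcription factor of arterial identity, was at 18.2, 10.9, 18.4 and 15.4 CPM in WT and at 17.8, 14.6, 15.6 and 20.6 CPM in S273A. WT replicate 2 was again the lowest and S273A replicate 6 the highest, and the log2 fold change was 0.13 (SE 0.17). It shares 804 exon bases with an opposite-strand gene. Gja5, connexin 40, ran from 6.99 to 13.3 CPM in WT and from 8.49 to 12.8 CPM in S273A.

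Venous genes were less alike. Of the 6, 5 had an estimate above 0 and 1, Vcam1, below, with a median log2 fold change of 0.08 (-0.03 without WT replicate 2 and 0.004 without S273A replicate 6). Vcam1 (row uc008rbx.1; chr3:116109949-116129688, minus strand, 10 exons) was at 217, 239, 170 and 199 CPM in WT and at 187, 236, 103 and 160 CPM in S273A. S273A replicate 4 was the lowest of all and replicate 3 stood level with the highest WT library, so the genotypes overlapped. As a log2 fold change this was -0.27 (SE 0.21, 95% interval -0.75 to 0.21), with an unadjusted p of 0.244 in edgeR. Without S273A replicate 3 it was -0.45 with an unadjusted p of 0.0425, and without S273A replicate 4 it was -0.09.

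Ephb4, the venous receptor of ephrin B2, was at 74.6, 61.7, 81.5 and 76.5 CPM in WT and at 69.6, 75.6, 82.2 and 92.5 CPM in S273A. S273A replicate 6 alone lay clearly above the WT range (log2 fold change 0.12, SE 0.10). Aplnr, the apelin receptor, spanned 27.0 to 59.6 CPM in WT and 31.3 to 59.99 CPM in S273A. Its highest library was 2.23-fold above its lowest, and WT replicate 2 was again the lowest.

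Vwf, the clotting factor stored by endothelium and platelets, ran from 141 to 192 CPM in WT and from 150 to 187 CPM in S273A. Selp, the P-selectin of the same stores, ran from 11.2 to 17.3 CPM and from 11.3 to 15.6 CPM. Sele had few reads, between 11 and 28 per library, and ran from 0.763 to 0.949 CPM in WT and from 0.677 to 1.57 CPM in S273A. Its interval of -0.44 to 0.89 leaves changes of either sign within reach of these libraries.

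Lymphatic genes were the only group whose median estimate lay below 0, at -0.17, with 1 of 4 above 0 and 3 below. Single libraries changed that value: the median was 0.12 without WT replicate 1 and -0.36 without S273A replicate 3. Prox1 (row uc033fol.1; chr1:190118035-190170714, minus strand, 6 exons), the factor that sets lymphatic identity, had 65, 57, 28 and 25 reads in WT and 19, 59, 47 and 25 in S273A. In CPM these are 3.86, 3.24, 1.92 and 1.47 in WT and 1.06, 3.32, 2.70 and 1.54 in S273A. High and low libraries occurred in both genotypes, with WT replicates 1 and 2 and S273A replicate 3 above 3 CPM. The log2 difference came to -0.29 (SE 0.40, 95% interval -1.18 to 0.61).

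Mmrn1, multimerin 1, made by lymphatic endothelium and by platelets, spread most of all 37 genes. It was at 26.3, 14.4, 5.40 and 11.8 CPM in WT and at 6.24, 18.6, 12.2 and 8.92 CPM in S273A. The highest and the lowest library were both WT, replicates 1 and 3, and differed 4.86-fold. The log2 fold change between genotypes was -0.34 (SE 0.44, 95% interval -1.33 to 0.66), one of the widest intervals of the set.

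Flt4, VEGFR3, the receptor of VEGF-C, was at 29.7, 21.7, 19.4 and 17.9 CPM in WT and at 19.5, 26.1, 19.5 and 20.5 CPM in S273A. One library of each genotype stood high, WT replicate 1 and S273A replicate 3, the same as for Mmrn1 (log2 fold change -0.05, SE 0.16). Pdpn, podoplanin, is made by lymphatic endothelium but also by mesothelium and stromal cells. It was at 32.2, 32.1, 22.4 and 30.5 CPM in WT and at 27.3, 30.3, 32.8 and 32.9 CPM in S273A. Apart from a low WT replicate 3 its libraries were close together, and S273A replicates 4 and 6 were highest (log2 fold change 0.07, SE 0.12).

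**Figure D3:**
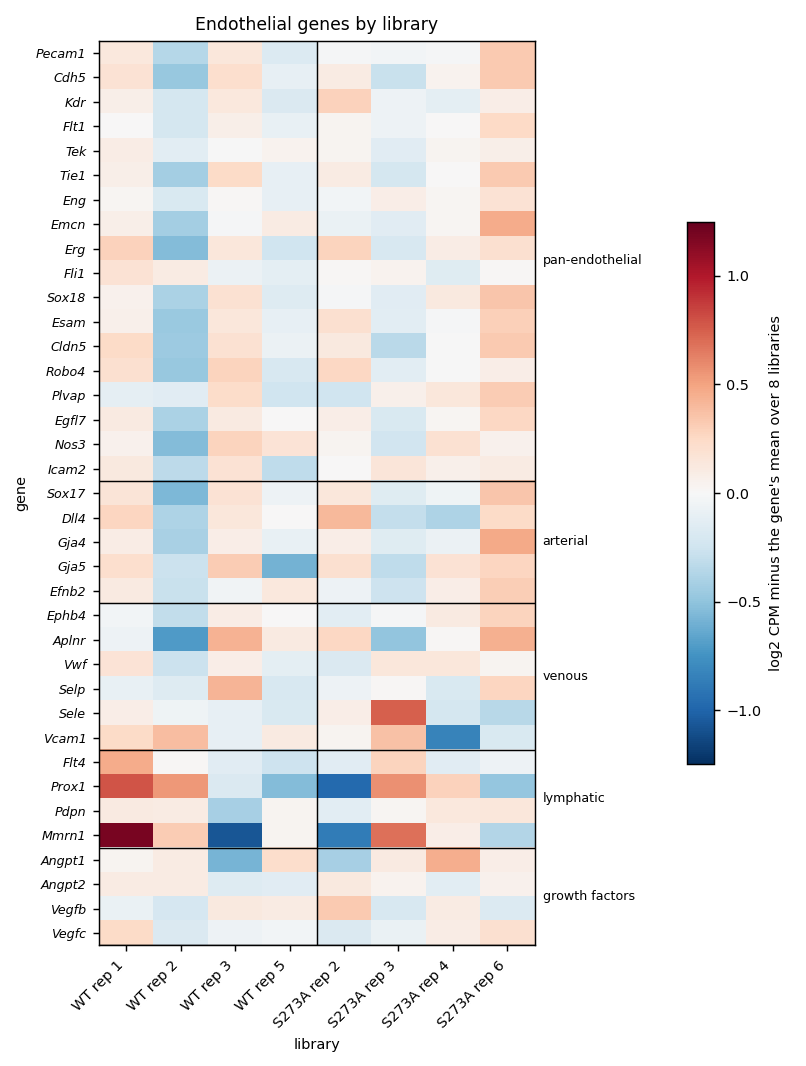
Log2 deviation of each gene (rows, grouped) from its own mean in the 8 libraries (columns, by genotype), on a colour scale centred at 0. The column of WT replicate 2 is low over the pan-endothelial and arterial genes, that of S273A replicate 6 is high, and the lymphatic genes Prox1, Flt4 and Mmrn1 form a separate pattern.

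The growth factors had small estimates. All 4 estimates were above 0, with a median log2 fold change of 0.05. Angpt1, the Tek agonist made by perivascular cells, was at 15.7, 16.5, 10.2 and 17.9 CPM in WT and at 11.4, 16.5, 20.97 and 16.2 CPM in S273A. The genotypes overlapped, and the log2 fold change was 0.11 (SE 0.20). It shares 737 exon bases with an opposite-strand gene. Angpt2, which endothelium itself releases and which can oppose Angpt1, was at 17.6, 17.6, 14.6 and 14.9 CPM in WT and at 17.8, 16.9, 14.9 and 17.0 CPM in S273A. Both genotypes thus held libraries near 15 and near 17 CPM (log2 fold change 0.04, SE 0.09).

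Vegfb, a Flt1 ligand, was at 32.5, 29.8, 37.4 and 36.9 CPM in WT and at 43.4, 30.0, 37.1 and 30.6 CPM in S273A. S273A replicate 2 was highest and the others lay within or near the WT range (log2 fold change 0.05, SE 0.13). Vegfc, the main lymphatic growth factor, was at 19.5, 14.6, 15.9 and 16.2 CPM in WT and at 14.6, 15.6, 17.7 and 19.1 CPM in S273A, fully overlapping (log2 fold change 0.02, SE 0.11).

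Ratios between partners do not depend on the scaling of the library, and 6 were compared as log2 ratios of RPKM by two-sided exact permutation tests over the libraries. Angpt2 over Angpt1 was 1.20 ± 0.32 in WT (SD, n = 4) and 1.13 ± 0.46 in S273A (SD, n = 4). Tie1 over Tek, an orphan receptor over the angiopoietin receptor it modulates, was 0.04 ± 0.23 and 0.14 ± 0.15. Flt1 over Kdr, decoy over signalling receptor, was -0.88 ± 0.07 and -0.86 ± 0.19. The level of a ratio depends on the deposited lengths, which were 0.551 times the GENCODE exon union for Flt1, 1.44 times for Angpt1 and 0.553 times for Gja5. The difference of a ratio between genotypes does not depend on them.

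The other 3 ratios did not pass either. Vegfc over Vegfb was -1.60 ± 0.22 in WT and -1.61 ± 0.37 in S273A, Efnb2 over Ephb4, the arterial ligand over its venous receptor, -1.46 ± 0.13 and -1.54 ± 0.14, and Gja5 over Gja4 -0.46 ± 0.34 and -0.46 ± 0.22 (SD, n = 4 each). The exact p-values of the 6 ran from 0.457 to 0.943 and all were 0.943 after Benjamini-Hochberg adjustment over the 6. The smallest exact p that 4 against 4 libraries can give is 0.0286.

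Other genes of the pathways were read from lists of their own. Of 34 further vascular signalling genes, all 34 had a row and 32 were tested; Apela and Gdf2 were not, for low counts. Among the 32, 0 passed the test at an adjusted p or at an unadjusted p under 0.05, 19 estimates were above 0 and 13 below, and the median was 0.04. Cxcl12, a chemokine of stroma and vessels, had the smallest p of this list (0.0538 in edgeR), at 225, 202, 228 and 209 CPM in WT and 268, 231, 212 and 276 CPM in S273A. S273A replicates 2, 3 and 6 lay above every WT one (log2 fold change 0.19, SE 0.09). Vegfa, the main ligand of Kdr, came next, with a log2 fold change of 0.23 (SE 0.15, unadjusted p 0.153). It was at 114, 115, 102 and 116 CPM in WT and at 175, 123, 131 and 97.3 CPM in S273A, with both the highest and the lowest library in S273A.

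Nrp1, the co-receptor for VEGF-A and semaphorins, was the 1 gene of the list with no overlap of the genotypes, against 1.19% of all rows, or 0.53% in its direction. It was at 473, 485, 469 and 467 CPM in WT and at 449, 462, 449 and 455 CPM in S273A, a log2 fold change of -0.06 (SE 0.05, unadjusted p 0.236 in edgeR). All 4 S273A libraries were lower, by a few percent, and the test did not call it. Of 32 further markers of endothelial identity 31 had a row and were tested, 0 passed at either level, 17 estimates were above 0 and 14 below, and the median was 0.02. Car4, a capillary carbonic anhydrase, had the smallest p there (0.150; log2 fold change 0.25, SE 0.16). It was at 30.4, 21.8, 29.5 and 25.1 CPM in WT and at 33.4, 24.7, 28.1 and 40.6 CPM in S273A, again lowest in WT replicate 2 and highest in S273A replicate 6. Arhgef15, an exchange factor found in endothelium, had the next (0.156; log2 fold change 0.11, SE 0.07). It was at 27.2, 25.0, 28.0 and 25.5 CPM in WT and at 28.5, 25.7, 29.1 and 30.5 CPM in S273A, with the same libraries at the ends.

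Although none of the 37 genes separated the genotypes, most pan-endothelial and arterial genes of the set varied together from library to library. WT replicate 2 was the lowest library for 24 of the 37 genes, 15 of 18 pan-endothelial, 4 of 5 arterial, 3 of 6 venous and 0 of 4 lymphatic. S273A replicate 6 was the highest for 17 of the 37, among them 11 of 18 pan-endothelial and 3 of 5 arterial genes. How often these libraries stood at the ends over all tested rows was not counted, so the counts may not be particular to endothelial genes. Over all tested rows WT replicate 2 and S273A replicate 4 were the least alike pair of libraries (r = 0.985). The mean log2 deviation of the pan-endothelial genes was 0.10, -0.34, 0.14 and -0.11 in the WT libraries and 0.07, -0.11, 0.03 and 0.22 in the S273A libraries. The arterial genes gave 0.17, -0.38, 0.14 and -0.12 in WT and 0.15, -0.23, -0.05 and 0.33 in S273A. Both groups thus ordered the libraries in nearly one way, with WT replicate 2 at the bottom and S273A replicate 6 at the top. The further lists shifted less. WT replicate 2 was still their lowest library, at -0.16 for the identity markers and -0.16 for the signalling genes. S273A replicate 6 was at 0.14 and 0.05. Some genes of these lists went the other way: Tal1 (11.7 CPM) and Calcrl (96.3 CPM) were highest in WT replicate 2.

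Markers of other cells differed in the same libraries. In WT replicate 2, adipocyte markers summed to 4485 CPM against 5252 to 7048 CPM in the other 7 libraries, and pericyte and smooth muscle markers to 649 CPM against 712 to 1005 CPM. Macrophage markers were highest there, at 4290 CPM against 3392 to 3876 CPM. Leukocyte markers had their highest sum there, 1303 CPM against 862 to 1173 CPM, but by mean log2 deviation they were higher in S273A replicate 3 (0.40) than in WT replicate 2 (0.35). S273A replicate 6 held the highest red cell marker sum, 564 CPM against 272 to 518 CPM in the others. The part of these cells in the endothelial values was not tested.

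Between genotypes the other marker lists were also not called. Estimates were above 0 for 5 of 6 adipocyte, 1 of 7 macrophage, 8 of 8 mesothelial, 5 of 8 pericyte and smooth muscle, 3 of 6 fibroblast progenitor, 3 of 5 tested platelet, 7 of 7 red cell and 1 of 6 leukocyte markers. The largest medians were 0.30 for mesothelial and 0.30 for red cell markers. Mesothelial markers summed to 121 to 196 CPM in WT and 174 to 242 CPM in S273A, and platelet markers to 28.2 to 34.5 CPM in WT and 19.5 to 40.8 CPM in S273A. None of these genes passed at an adjusted p in edgeR, and 2 had an unadjusted p under 0.05, 1 of 8 mesothelial and 1 of 7 red cell markers. The share over all tested rows was 1.46%. Epb42, a red cell membrane protein, was at 0.356, 0.739, 0.616 and 0.294 CPM in WT and at 0.948, 0.675, 1.09 and 2.58 CPM in S273A, with S273A replicate 6 highest (log2 fold change 1.38, SE 0.49, unadjusted p 0.0181). Slpi of the mesothelial list had a log2 fold change of 0.43 (SE 0.19, unadjusted p 0.0434).

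Across the 8 libraries the correlation of log2 CPM was taken for every pair of genes, as a description. The genes of a library share its depth, scaling and tissue composition, which differ between libraries. Over the 153 pairs of pan-endothelial genes the median r was 0.73, and 140 were positive. This median was 0.55 without WT replicate 2, and none was taken over pairs of all tested rows for comparison. Pan-endothelial with arterial genes gave 0.74 over 90 pairs and pan-endothelial with venous genes 0.46 over 108 pairs (0.17 without WT replicate 2). Pan-endothelial with lymphatic genes gave -0.21 over 72 pairs, of which 15 were positive.

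Single genes departed from their group. Each gene was described by the median of its correlations with the pan-endothelial genes. Sox17 and Esam each had a median r of 0.89, while Fli1, itself pan-endothelial, had -0.15 and Plvap, the diaphragm protein of fenestrated capillaries, 0.41. Among the venous genes Aplnr (0.78) and Ephb4 (0.74) followed the pan-endothelial genes, Selp (0.54) and Vwf (0.46) less so, and Sele (-0.30) and Vcam1 (-0.43) did not. Of the lymphatic genes none did: Flt4 had -0.09, Pdpn -0.21, Mmrn1 -0.37 and Prox1 -0.40 (all over 8 libraries).

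Prox1, Flt4 and Mmrn1 shared a pattern, with correlations of 0.76 to 0.81 among the 3 pairs. They were high in WT replicate 1 and S273A replicate 3, and the 2 lowest libraries of each were among WT replicates 3 and 5 and S273A replicate 2. Other genes of the set were correlated with it in part, none of them with it alone. Fli1 had r = 0.81 with Flt4, 0.54 with Mmrn1 and 0.47 with Prox1, but its highest r was with Angpt2 (0.86). Pdpn had r = 0.70 with Mmrn1, 0.30 with Flt4 and 0.37 with Prox1, and its highest r was with Angpt1 (0.88). Angpt1 itself had r = 0.64 with Mmrn1, 0.42 with Prox1 and 0.11 with Flt4. Sele had r = 0.61 with Flt4, 0.41 with Prox1 and 0.41 with Mmrn1. The 6 pairs of the 4 lymphatic genes had a median r of 0.73. Reln, reelin, which lymphatic endothelium also makes, was at 26.2, 16.8, 6.84 and 12.6 CPM in WT and at 7.08, 20.5, 13.4 and 9.48 CPM in S273A, the same order as Mmrn1 in every library. Lyve1, a receptor of lymphatic endothelium and of some macrophages, was at 16.1, 13.6, 17.2 and 14.9 CPM in WT and at 6.91, 19.2, 16.1 and 14.6 CPM in S273A. WT replicate 3, the lowest library for Mmrn1, was its highest WT library. Foxc2, of the identity marker list, was at 3.32, 1.93, 2.26 and 1.88 CPM in WT and at 2.23, 2.08, 2.30 and 2.58 CPM in S273A, with replicate 3 the lowest of S273A. Itga9 of that list was highest in S273A replicate 3 (78.2 CPM) and lowest in WT replicate 3 (59.8 CPM). By mean log2 deviation leukocyte markers were highest in S273A replicate 3 (0.40), followed by WT replicate 2 (0.35), with 0.11 in WT replicate 1, and platelet markers, a further source of Mmrn1, were lowest in S273A replicate 2. Their part in this pattern was not tested.

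**Figure D4:**
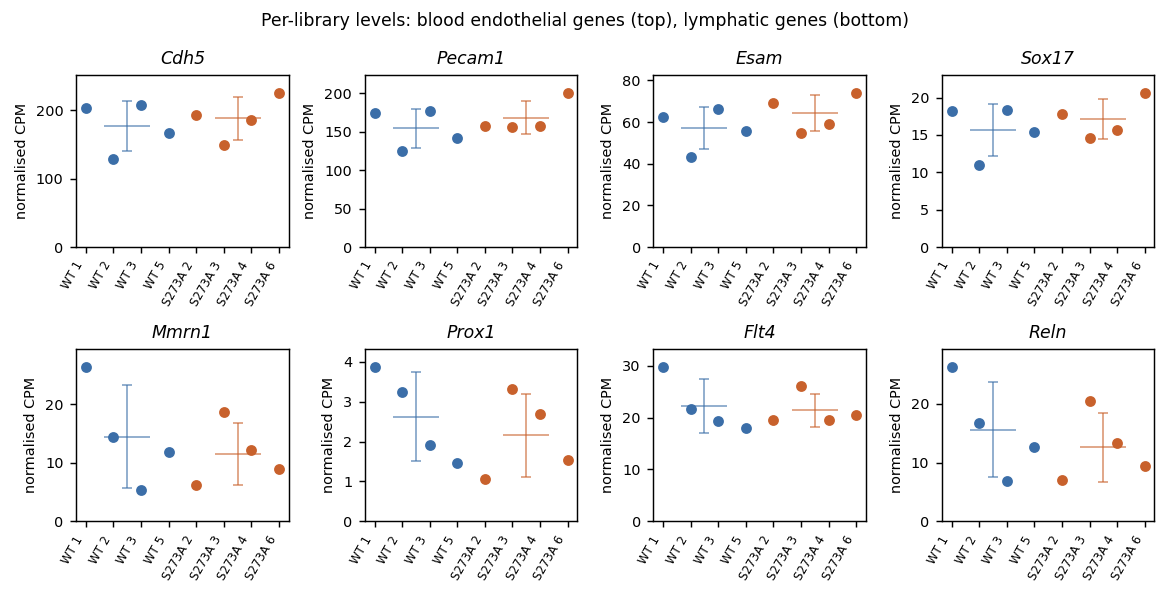
Normalised CPM (y axis, from 0) by library (x axis) for 4 blood endothelial genes (top: Cdh5, Pecam1, Esam, Sox17) and 4 lymphatic endothelial genes (bottom: Mmrn1, Prox1, Flt4, Reln); points are libraries, and each line with bars is a genotype's mean ± SD (n = 4). In the top row WT replicate 2 is lowest and S273A replicate 6 highest, as for Cdh5 at 129 and 225 CPM; in the bottom row WT replicate 1 and S273A replicate 3 are the highest of their genotypes, as for Mmrn1 at 26.3 and 18.6 CPM.

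**Figure D5:**
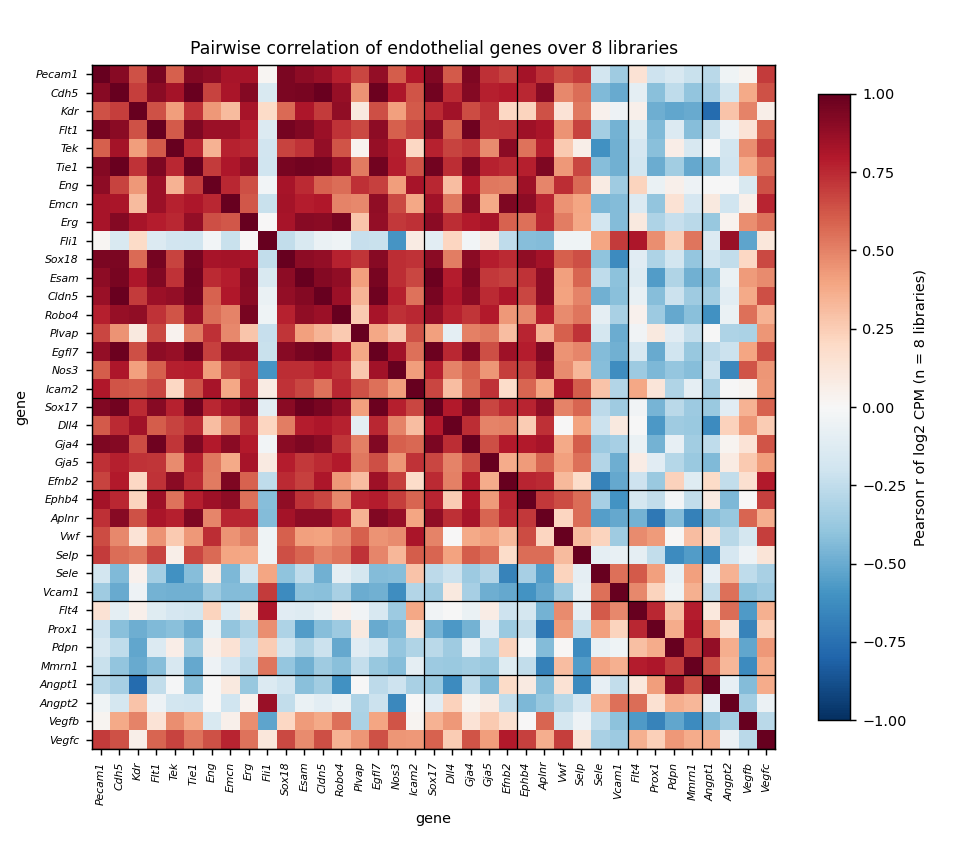
Pearson correlation of log2 CPM over the 8 libraries for every pair of the 37 genes (both axes, grouped; colour from -1 to 1). The pan-endothelial and arterial genes form 1 positive block (median r of 0.73 within the former). Prox1, Flt4 and Mmrn1 form a small second one. Fli1 and Pdpn are correlated with it in part, as with r = 0.81 for Fli1 and Flt4. Their highest r was with growth factors, 0.86 for Fli1 with Angpt2 and 0.88 for Pdpn with Angpt1.

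A total of 8 pairs was tested by exact permutation of the pairings, with adjustment over the 8. Cdh5 and Pecam1, partners at endothelial junctions, had r = 0.91 (exact permutation p 0.00159, adjusted 0.0127) and Spearman's coefficient = 0.95 (exact permutation p 0.00114, adjusted 0.00913), with r = 0.98 after leaving out the 2 libraries farthest from the median. Its adjusted p did not pass without WT replicate 1, WT replicate 2 or S273A replicate 6, where r was 0.90, 0.81 and 0.89. Prox1 with Mmrn1 had r = 0.81 (exact permutation p 0.0173, adjusted 0.0633) and Spearman's coefficient = 0.83 (exact permutation p 0.0154, adjusted 0.0410). Prox1 with Flt4 had r = 0.76 (exact permutation p 0.0237, adjusted 0.0633) and Spearman's coefficient = 0.83 (exact permutation p 0.0154, adjusted 0.0410). Without the 2 farthest libraries their r was 0.62 and 0.72.

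Prox1 and Pdpn had r = 0.37 and Spearman's coefficient = 0.24 (exact permutation p 0.399 and 0.582, adjusted 0.456 and 0.665). Pdpn and the mesothelial marker Upk3b had r = 0.65 and Spearman's coefficient = 0.24 (exact permutation p 0.0990 and 0.582, adjusted 0.158 and 0.665), and r was -0.06 without the 2 farthest libraries, so it rests on those. Cdh5 with Kdr had r = 0.69 and Spearman's coefficient = 0.76 (adjusted exact permutation p 0.113 and 0.0735). Vwf with Selp had r = 0.32 and Spearman's coefficient = 0.10, and Vcam1 with the fibroblast marker Pdgfra r = -0.35 and Spearman's coefficient = -0.29, with adjusted exact permutation p-values from 0.456 to 0.840. Within a genotype there are only 4 libraries, too few for a value of their own, and no sequencing batch is given in the labels.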

How the data were processed

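Whole-tissue RNA of 8 libraries was depleted of ribosomal RNA, made into unstranded tagmented libraries and read as short pairs, per the labels' protocols. The authors deposited 1 table of read counts per gene row with a column of row lengths in bases (another quantity, used for RPKM only). The submitters' processing notes name featureCounts 1.5.2, edgeR 3.3.0, HISAT2 2.0.5, Picard 2.9.2 and bcl2fastq 2.20.0, and mm10, without roles. For the annotation version and the handling of multi-mapped and duplicate reads, the entry is: not given in the sources used here. Reads from overlapping genes on opposite strands therefore cannot be separated.

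Counts were fitted over the whole table with edgeR 4.0.16 in R 4.3.3. filterByExpr kept 15667 of 31854 rows (its default minimum of 10 counts, met by 4 or more libraries, with 15 over all), libraries were scaled by TMM, and genotype was tested by robust quasi-likelihood with Benjamini-Hochberg adjustment over all tested rows. Groups came from the genotype label and replicate numbers from the titles. Each of the 37 symbols stood on 1 row. Log2 CPM used a prior count of 2, and no 2 libraries matched within counting noise (smallest chi-square over its degrees of freedom 4.67). Alternatives were RLE factors, DESeq2 1.42.0, limma-voom (limma 3.58.1), 2 other filters, a replicate block, summed rows and leaving out each library; a robust limma-voom fit and the correlation medians without WT replicate 2 were added after seeing the data. The edgeR script was checked on simulated counts.

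The genes and lists were chosen with earlier results of these data known, so no list was tested. Values by library are given for the 2 genes with the highest level per length and the 2 with the smallest p in each group, and the 2 genes with the smallest p in each pathway list. Nrp1, Reln, Lyve1, Foxc2, Itga9, Tek, Fli1, Aplnr and other genes given by their range were named after their values were seen. Positions are from GENCODE M21 on GRCm38 (mm10), and upstream sequences from RefSeq. No sample column was left unmapped. Some items are not reported here.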

Additional observations from a re-analysis of the deposited data

Results flagged for a closer look

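In 74 groups of 4 libraries (37 genes in 2 genotypes), 4 held a library far from the other 3, with a gap to its nearest neighbour above Dixon's 95% critical value for groups of 4, as a share of the group's range. Chance flags about 1 in 20 groups, so 4 of 74 is near that rate. Pecam1, the platelet endothelial adhesion molecule of endothelial junctions, was at 200.2 CPM in S273A replicate 6 and at 156 to 158 CPM in the other S273A libraries (gap of 0.950 of the range). Fli1 was at 79.7 CPM in S273A replicate 4 and at 89.5 to 91.5 CPM in the others (0.830). Selp was at 17.3 CPM in WT replicate 3 and at 11.2 to 12.0 CPM in the others (0.864). Flt4 was at 26.1 CPM in S273A replicate 3 and at 19.5 to 20.5 CPM in the others (0.845).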

How the results depend on the processing

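In all 16 alternatives 0 of the 37 genes were called. Over all rows edgeR called 0, DESeq2 called 1 and leaving out single libraries called 0 to 1 (1 without S273A replicate 4), in both cases Gdf3, which is no endothelial gene. Robust limma-voom called 0. For the numbers shared by the genotypes, 2 and 3, the deviations of same-numbered libraries had correlations of -0.08 and -0.22. With no reference from differently numbered libraries, these values cannot show whether the numbers mark pairs, and the labels state no pairing. A replicate block gives each number its own level, and only numbers 2 and 3 occur in both genotypes. Its genotype estimates thus rest on replicates 2 and 3 of each genotype alone, and it had little power to call any gene. With it 0 genes were called, 32 of 37 estimates were above 0 (median 0.08) and the lymphatic median was 0.12. In this smaller comparison 9 of the 37 estimates turned sign. Among them were those of 4 genes given by library, to 0.14 for Flt4, 0.27 for Mmrn1, 0.058 for Vcam1 and -0.0087 for Vegfc. In limma-voom, ordinary or robust, Dll4 was -0.016.

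Leaving out single libraries turned the sign of small estimates. Log2 fold changes ran from -0.037 to 0.25 for Angpt1, -0.037 to 0.19 for Cdh5, -0.079 to 0.16 for Cldn5, -0.15 to 0.12 for Dll4, -0.063 to 0.13 for Efnb2, -0.16 to 0.12 for Flt4, -0.66 to 0.12 for Mmrn1, -0.035 to 0.12 for Pdpn, -0.015 to 0.21 for Sox17, -0.068 to 0.13 for Vegfb and -0.050 to 0.11 for Vegfc. The log2 ratio differences ran from -0.26 to 0.12 for Angpt2 over Angpt1, -0.14 to 0.15 for Vegfc over Vegfb, -0.028 to 0.11 for Flt1 over Kdr and -0.16 to 0.085 for Gja5 over Gja4. Correlations ran from 0.81 to 0.97 for Cdh5 with Pecam1, 0.73 to 0.91 for Prox1 with Mmrn1 (passing at an adjusted permutation p of 0.0175 without WT replicate 3) and -0.55 to 0.033 for Vcam1 with Pdgfra. The cause was not tested; leaving out a library also leaves fewer samples. Prox1 and Sele had the fewest reads, which limits the precision of their values.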
